A study of Mus musculus with 9 samples.

Results

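The genes of ketone body use by the heart were examined in RNA from the left ventricle of mice with and without a cardiac deletion of *Vdac2*, which encodes a channel of the outer mitochondrial membrane. They are *Bdh1*, *Bdh2*, *Oxct1*, *Acat1* and *Slc16a1*, 5 of the 52636 genes in the deposited table, and all 5 were among the 16322 genes that passed the filter on low counts. The genes were chosen by name, and the libraries set side by side were chosen by the measured level of *Vdac2*, with earlier results of these data known, so the values across *Vdac2* levels are a description without a test.

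Ketone bodies are made in the liver from fatty acids and burned by other organs, the heart among them. In the mitochondria of heart muscle cells, hydroxybutyrate is oxidized to acetoacetate, acetoacetate receives coenzyme A from succinyl-CoA, and the acetoacetyl-CoA formed is split into acetyl-CoA for the citric acid cycle. The liver lacks the middle step and therefore exports what it makes, and failing hearts are known to draw more on ketone bodies.

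The table holds 9 libraries, of which 5 are labelled VDAC2 WT (libraries 1 to 5) and 4 are labelled VDAC2 KO (libraries 6 to 9). All mice were of the C57BL6J background and 16 weeks old. In the KO, floxed *Vdac2* was removed by a Cre recombinase that the αMHC promoter drives in heart muscle cells during development, so other cells of the ventricle keep the gene, and the WT littermates carried either the floxed allele or the Cre. Whether each library came from its own mouse is not said in the labels, and the p-values below measure the spread between these libraries.

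*Vdac2* went against the labels in several libraries. In CPM, read counts brought to a common library size with the TMM method of edgeR, *Vdac2* stood at 20.1, 366.1, 58.4, 364.7 and 21.3 in libraries 1 to 5, labelled WT, and 383.6, 20.5, 421.0 and 19.1 in libraries 6 to 9, labelled KO. Libraries 1, 5, 7 and 9 were thus under 100 CPM, and libraries 2, 4, 6 and 8 were over 300 CPM. The values nearest to these limits were 21.3 CPM in library 5 and 364.7 CPM in library 4, beside 58.4 CPM in library 3, which is shown apart. No genotype was read from these levels, and the only groups tested are the deposited labels. The table assigns 27345052 to 32469135 reads to genes in each library labelled WT and 36477141 to 44673988 in each labelled KO. The label, lane 1 or 2 of the flow cell, and the sex-chromosome genes *Xist* and *Ddx3y* all separate the libraries in the same way, so that their parts cannot be told apart. Library 3 stood apart from the other 8: mitochondrially encoded genes took 9.07% of its counts against 16.8% to 19.2%, and 8 heart muscle cell markers summed to 15835 CPM against 59135 to 81907 CPM. These markers (*Myh6*, *Actc1*, *Tnnt2*, *Tnni3*, *Myl2*, *Ryr2*, *Pln* and *Atp2a2*) were present in all 9 libraries.

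Upstream sequences are shown for *Bdh1* and *Oxct1*, the 2 abundant members whose libraries did not overlap across *Vdac2* levels. They come from the 250 bases before a RefSeq transcription start (GRCm38.p6, plus strand) and end where the next GENCODE exon of the gene begins, which leaves out 17, 5 and 45 bases, with the last 50 bases printed in capitals. RefSeq gives *Bdh1* 2 starts, and the window of the second lies in an intron of the longer gene model. The stretches are chr16:31422047-31422279, chr16:31428503-31428747 and chr15:4026178-4026382.
Bdh1 first start: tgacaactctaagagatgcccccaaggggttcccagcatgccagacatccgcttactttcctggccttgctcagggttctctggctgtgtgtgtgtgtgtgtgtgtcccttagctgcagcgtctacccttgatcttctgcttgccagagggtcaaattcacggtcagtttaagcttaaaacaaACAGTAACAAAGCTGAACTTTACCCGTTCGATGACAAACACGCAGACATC
Bdh1 second start: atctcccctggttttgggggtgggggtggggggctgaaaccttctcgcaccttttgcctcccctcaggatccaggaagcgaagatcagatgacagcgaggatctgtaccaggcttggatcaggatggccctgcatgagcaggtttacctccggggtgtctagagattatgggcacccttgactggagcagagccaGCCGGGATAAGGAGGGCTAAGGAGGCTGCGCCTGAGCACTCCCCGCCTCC
Oxct1: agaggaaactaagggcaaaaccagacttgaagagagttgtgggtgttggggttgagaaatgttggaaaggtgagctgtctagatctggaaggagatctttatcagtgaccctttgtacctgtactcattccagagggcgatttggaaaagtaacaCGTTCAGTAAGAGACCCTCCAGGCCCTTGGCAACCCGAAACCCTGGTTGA
The share of G and C was 49.8% and 60.4% in these stretches of *Bdh1*, 47.8% in that of *Oxct1*, 48% in that of *Bdh2* and 76.4% in that of *Slc16a1*. 3 motifs were searched on both strands of the 5 full RefSeq windows of 300 bases matched to 4 of the members. TCAAGGTCA, the element bound by estrogen-related receptors, occurs in 0.423% of all 32851 such windows, the AGGTCA direct repeat spaced by 1 base in 0.0396% and TGATGCAA in 0.895%, and the first shares its letters AGGTCA with the second. None of these letters occurred in the members' windows, which describes only the windows.

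*Bdh1* (ENSMUSG00000046598, chr16:31422280-31458901 of GRCm38, plus strand, 7 transcripts) encodes the mitochondrial dehydrogenase that converts hydroxybutyrate to acetoacetate, the entry step of ketone oxidation. Libraries 1 to 5 held 29.7, 77.7, 30.4, 67.0 and 36.7 CPM of *Bdh1*, and the other 4 held 85.0, 31.7, 92.8 and 32.5 CPM in libraries 6 to 9. The 4 libraries with low *Vdac2* held between 29.7 and 36.7 CPM and the 4 with high *Vdac2* between 67.0 and 92.8 CPM, so the ranges did not overlap. Any library with high *Vdac2* held 1.82 to 3.12 times the *Bdh1* level of any library with low *Vdac2*. The same order stood within each label, with ratios of 1.82 to 2.61 among the libraries labelled WT and 2.61 to 2.92 among those labelled KO. Library 3 had a *Bdh1* level of 30.4 CPM, inside the range of the libraries with low *Vdac2*. The counts behind these levels ran from 907 to 3207, and the exact 95% interval for counting error was 34.7 to 38.8 CPM in library 5, the highest with low *Vdac2*, and 63.9 to 70.2 CPM in library 4, the lowest with high *Vdac2*. In 4.93% of all tested genes the libraries with low *Vdac2* lay wholly below those with high *Vdac2*. Leaving out *Vdac2*, which set the split, a gap of 1.82 times or more between the nearest libraries was present in 6 other genes in the same direction and in 18 genes that were higher at low *Vdac2*.

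*Oxct1* (ENSMUSG00000022186, chr15:4026383-4155344, plus strand, 5 transcripts) encodes succinyl-CoA:3-ketoacid CoA transferase, the step that activates acetoacetate and that the liver lacks. *Oxct1* reached 1130.5, 1655, 484.5, 1647 and 1313 CPM in the first 5 libraries, whereas libraries 6 to 9 had 1619, 1240.1, 1876 and 1254 CPM. The libraries with low *Vdac2* held between 1130.5 and 1313 CPM, below the 1619 to 1876 CPM of those with high *Vdac2*, again without overlap. The ratio of a library with high *Vdac2* to one with low *Vdac2* was 1.23 to 1.66, a smaller difference than for *Bdh1*. Within the labels it was 1.25 to 1.46 among the libraries labelled WT and 1.29 to 1.51 among those labelled KO. Library 3 had the lowest level of all, 484.5 CPM. *Vdac2* aside, a gap of 1.23 times or more was present in 68 other genes in the same direction and in 215 genes in the opposite one.

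*Acat1* (ENSMUSG00000032047, chr9:53580522-53610382, minus strand, 3 transcripts) encodes the mitochondrial thiolase that splits acetoacetyl-CoA and also serves isoleucine breakdown. For *Acat1* the values were 597.0, 703.5, 180.0, 761.0 and 592.0 CPM in libraries 1 to 5, then 644.0, 557.4, 775.5 and 688.5 CPM in libraries 6 to 9. The ranges overlapped, with 557.4 to 688.5 CPM at low *Vdac2* and 644.0 to 775.5 CPM at high *Vdac2*. Among the libraries labelled WT the 2 with low *Vdac2* lay below the 2 with high *Vdac2* by 1.18 to 1.29 times, and among those labelled KO library 9 lay above library 6. Library 3 had a level below all others, as for *Oxct1*.

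*Slc16a1* (ENSMUSG00000032902, chr3:104638668-104658462, plus strand, 1 transcript) encodes MCT1, which carries lactate, pyruvate and ketone bodies with a proton across the cell membrane. Libraries 1 to 5 gave 543.0, 458.9, 237.5, 406.5 and 446.1 CPM of *Slc16a1*, followed by 441.4, 443.6, 449.3 and 630.9 CPM in libraries 6 to 9. The ranges overlapped, and the 2 highest levels, in libraries 9 and 1, both came with low *Vdac2*, while libraries 5 and 7 lay among those with high *Vdac2*. *Nppa*, the atrial natriuretic peptide gene that ventricles express under load, was also highest in libraries 9 and 1 among the 8 libraries other than 3, at 1522 and 950.6 CPM, against 156.8 and 400.2 CPM in libraries 5 and 7 and 72.7 to 104.4 CPM at high *Vdac2*. Library 3 went the other way, with the highest *Nppa* of all, 3344 CPM, and the lowest *Slc16a1*. The part of such differences between hearts in the level of *Slc16a1* was not tested.

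*Bdh2* (ENSMUSG00000028167, chr3:135281221-135304426, plus strand, 4 transcripts) encodes a cytosolic dehydrogenase that has been linked to ketone use outside mitochondria and to iron handling. It was at the edge of detection, with 16, 11, 71, 9 and 14 counts in libraries 1 to 5 and 12, 27, 13 and 33 counts in libraries 6 to 9. These correspond to 0.525, 0.402, 1.91, 0.342 and 0.427 CPM, and to 0.318, 0.711, 0.382 and 0.761 CPM. The libraries with low *Vdac2* held 0.427 to 0.761 CPM and lay above the 0.318 to 0.402 CPM of those with high *Vdac2*, but the nearest pair, libraries 5 and 2, differed by 1.06 times and their exact 95% intervals of 0.233 to 0.716 and 0.201 to 0.719 CPM overlapped almost in full. At this depth a difference of that size could not be seen in *Bdh2*. Within the labels, libraries with low *Vdac2* held 1.06 to 1.53 times the *Bdh2* of those with high *Vdac2* under WT. Under KO the ratio was 1.86 to 2.39, and the intervals of libraries 7 and 8, 0.469 to 1.03 and 0.203 to 0.653 CPM, overlapped. In 7.16% of all tested genes the libraries with low *Vdac2* lay wholly above those with high *Vdac2*. By *Vdac2* level, 2 of the 5 members lay lower without overlap, 1 lay higher and 2 overlapped, counts from which nothing is read because the libraries were chosen for this contrast.

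**Figure D1:**
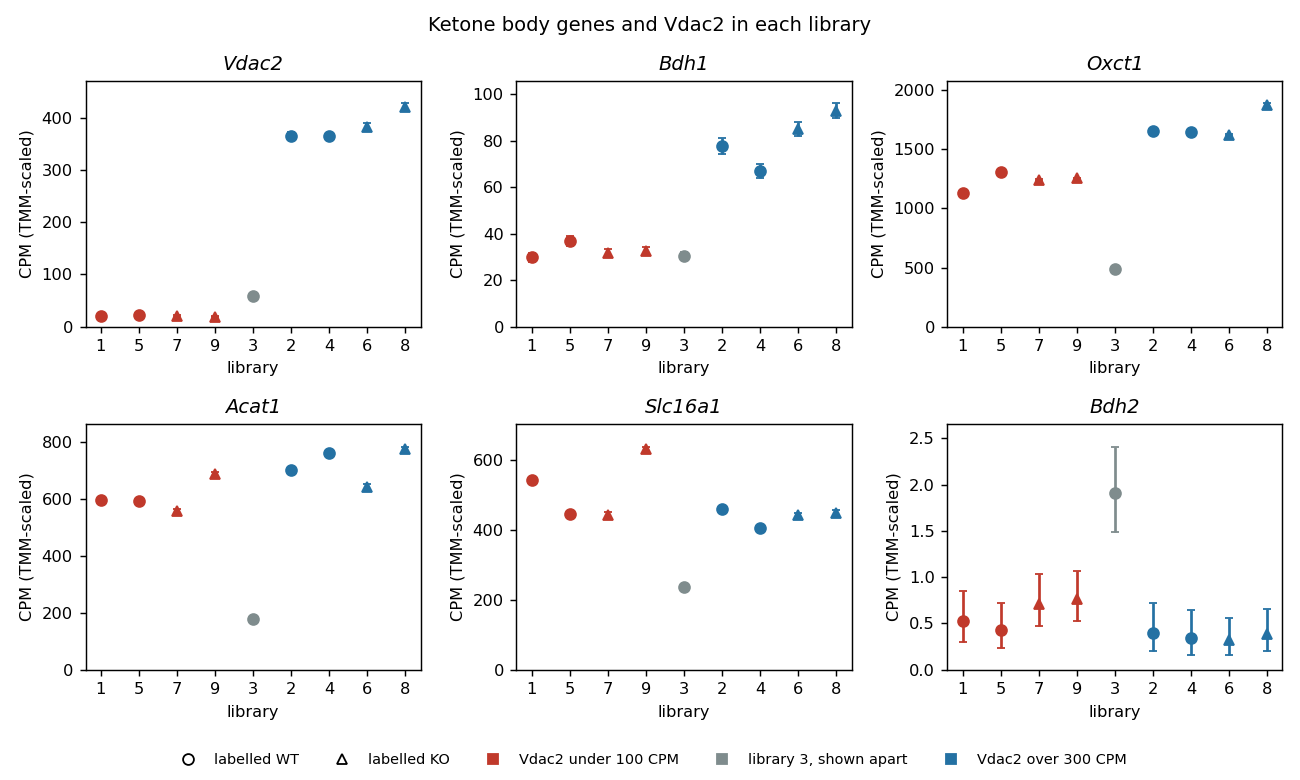
Level of Vdac2 and the 5 ketone body genes in each library (y axis, TMM-scaled CPM, linear from 0), ordered by Vdac2 level (x axis, library number) with exact 95% intervals for counting error as bars. Bdh1 lies between 29.7 and 36.7 CPM in libraries 1, 5, 7 and 9 and between 67.0 and 92.8 CPM in libraries 2, 4, 6 and 8, in both labels, whereas Slc16a1 and Acat1 overlap.

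The study compared KO with WT, and the deposited labels are the only groups that could be tested. These labels did not contrast *Vdac2* itself (log2 fold change 0.35 with a standard error of 1.19, edgeR adjusted p = 0.921), so what follows compares libraries by label and may not contrast the genotypes. With edgeR (quasi-likelihood, Benjamini-Hochberg adjusted over all tested genes), 0 of the 5 passed an adjusted p of 0.05, where 0.0551% of all tested genes did (9 of 16322), and 0 of the 5 passed an unadjusted p of 0.05, where 6.11% of all tested genes did. DESeq2 called 0 of the 5 and 0.429% of all tested genes. Missing these thresholds does not show that the levels were alike. The WT-labelled mean of *Bdh1* was 48.3 ± 22.4 CPM (SD, n = 5), and the KO-labelled mean was 60.5 ± 32.9 CPM (SD, n = 4). The spread within each label was larger than the difference, since each label holds libraries with low and with high *Bdh1*. Its log2 fold change, KO minus WT, was 0.33 with a standard error of 0.43 (edgeR adjusted p = 0.787). An exact two-sided permutation test of the 126 assignments gave p = 0.444 for *Bdh1*, and the smallest two-sided p that these labels allow is 0.0159.

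For *Oxct1* the means were 1246 ± 481 CPM under the WT label (SD, n = 5) and 1497 ± 308 CPM under the KO label (SD, n = 4), so the log2 fold change was 0.27 with a standard error of 0.34 (edgeR adjusted p = 0.776). The corresponding means of *Acat1* were 567 ± 228 and 666 ± 90.9 CPM, with 0.23 as its log2 fold change and a standard error of 0.35 (edgeR adjusted p = 0.815). Single libraries moved these values. The log2 fold change of *Oxct1* was 0.05 without library 3 and 0.14 without library 8, and that of *Acat1* was -0.0015 without library 3, 0.36 without library 4 and 0.15 without library 8. For *Bdh1* it was 0.04 without library 8, 0.12 without library 6 and 0.19 without library 1 or 3, and 0.53 to 0.56 without library 2, 7 or 9.

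The means of *Slc16a1* were 418 ± 113 CPM under the WT label (SD, n = 5) and 491 ± 93.1 CPM under the KO label (SD, n = 4), with 0.23 as its log2 fold change and a standard error of 0.23 (edgeR adjusted p = 0.735), and it was 0.08 without library 3 and 0.09 without library 9. *Bdh2*, at 0.722 ± 0.669 and 0.543 ± 0.225 CPM, had a log2 fold change of -0.43 with a standard error of 0.57 (edgeR adjusted p = 0.787). Without library 3 the sign for *Bdh2* turned, to 0.36, and without library 6 the value was -0.24. The exact permutation tests gave p = 0.413 for *Oxct1*, 0.556 for *Acat1*, 0.381 for *Slc16a1* and 0.905 for *Bdh2*. The median log2 fold change of the 5 members was 0.23, beside -0.02 over all tested genes, and without library 3 it was 0.08, beside 0.003.

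**Figure D2:**
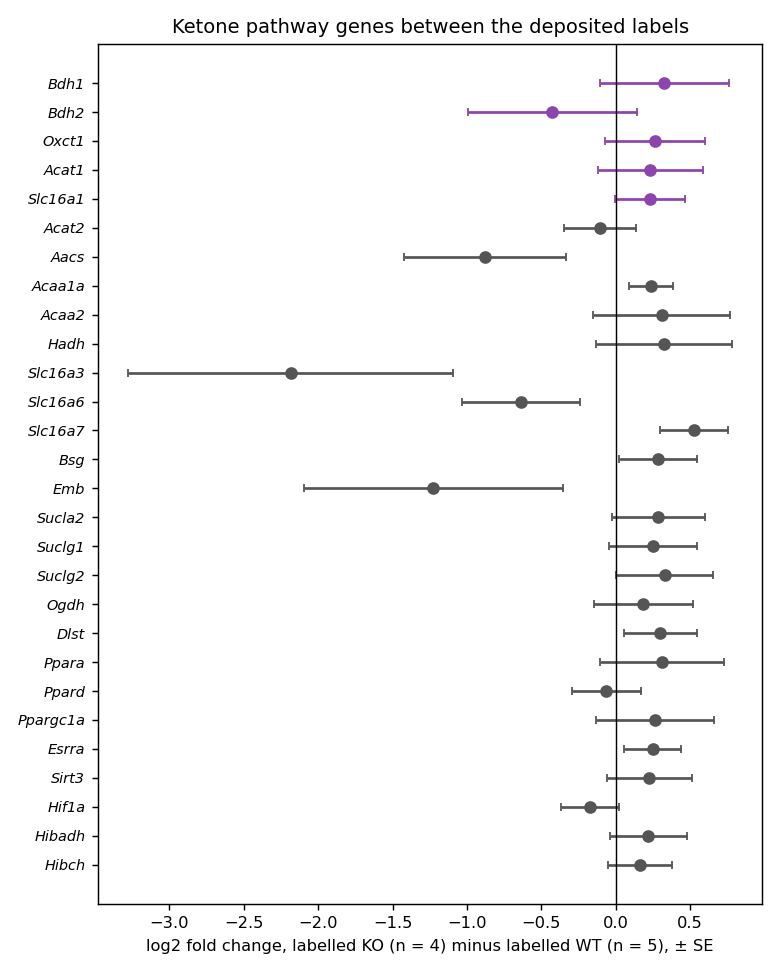
Log2 fold change from edgeR, KO label (n = 4) minus WT label (n = 5) on the x axis, for the 5 members in purple and 23 other tested genes of the pathway in grey (rows). Bars are 1 standard error, and the values of the members, from -0.43 for Bdh2 to 0.33 for Bdh1, did not pass the test.

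Per kilobase of annotated exon, *Oxct1* was the most abundant of the 5 in all 9 libraries, and the order of the levels was *Oxct1*, *Acat1*, *Slc16a1*, *Bdh1* and *Bdh2* in all but library 3. There *Slc16a1*, at 53.7 CPM per kilobase, stood above *Acat1*, at 47.9 CPM per kilobase. In the other 8 libraries *Oxct1* ran from 305 to 507 CPM per kilobase, *Acat1* from 148 to 206 and *Slc16a1* from 91.8 to 143. The ranges of *Acat1* and *Slc16a1* were separate but close. *Bdh1* ran from 7.65 to 23.9 CPM per kilobase, far below the genes of the following steps, and *Bdh2* ran from 0.0748 to 0.179 CPM per kilobase in those 8 libraries and was at 0.45 CPM per kilobase in library 3.

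**Figure D3:**
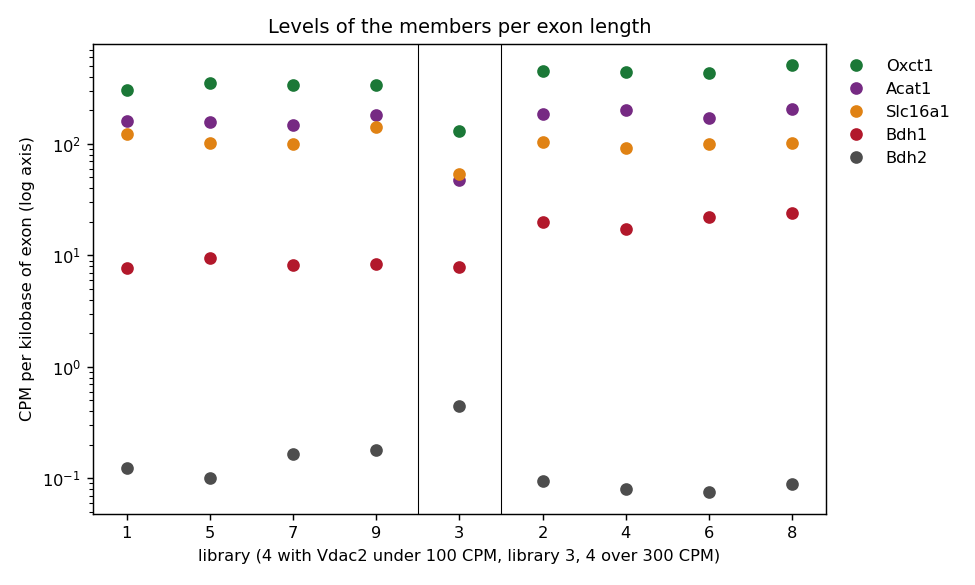
Levels of the 5 members in CPM per kilobase of exon (y axis, log scale) in each library (x axis, ordered by Vdac2 level, library 3 between the lines). Oxct1 lies at the top throughout, Bdh1 differs by 1.82 to 3.12 times between the libraries with low and high Vdac2, and Bdh2 lies below 1 CPM per kilobase.

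The balance between the steps, which does not depend on how a library is scaled, also differed with *Vdac2* level. Per exon length, *Oxct1* exceeded *Bdh1* by 37.6 to 41.0 times in the libraries with low *Vdac2* and by 20.01 to 25.8 times in those with high *Vdac2*, and library 3 gave 16.8. *Acat1* exceeded *Bdh1* by 16.7 to 21.9 times and by 7.84 to 11.8 times, and by 6.13 times in library 3. *Bdh1* made up 1.58% to 1.81% of the summed level of *Bdh1*, *Oxct1* and *Acat1* at low *Vdac2* and 2.59% to 3.47% at high *Vdac2*. Between the 2 *Vdac2* levels these ranges did not overlap. Library 3, at 4.19%, lay beyond the libraries with high *Vdac2*, although its own *Vdac2* was at 58.4 CPM. *Oxct1* over *Acat1* overlapped, at 1.85 to 2.26 and 2.20 to 2.55. *Slc16a1* was 0.284 to 0.421 of *Oxct1* at low *Vdac2*, 0.200 to 0.232 at high *Vdac2* and 0.410 in library 3. *Slc16a1* alone overlapped and *Oxct1* alone lay lower at low *Vdac2*, so a gene of flat level would also be higher relative to *Oxct1* there. These ratios are made from the same libraries and the same levels as above, so they are not a separate result. They are a description, without a test, and other genes were not set over *Oxct1* or *Bdh1* for comparison.

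Bulk RNA cannot tell fewer heart muscle cells from less RNA per cell, and some cell markers also differed with *Vdac2* level. The sum of the 8 heart muscle cell markers was 59135 to 67354 CPM in the libraries with low *Vdac2* and 70937 to 81907 CPM in those with high *Vdac2*, with 1 of the 8 lower without overlap. The activated fibroblast markers *Postn*, *Cthrc1* and *Fn1* summed to 177 to 367 CPM against 87.3 to 135.5 CPM, 3 of 3 higher without overlap, and to 4038 CPM in library 3. The 5 macrophage markers summed to 403 to 544 CPM against 234 to 362 CPM, 3 of 5 higher without overlap. Over all tested genes, 4.93% lay wholly lower and 7.16% wholly higher at low *Vdac2*. The 5 endothelial markers summed to 407 to 533 CPM against 524 to 619 CPM, with overlap, and the fibroblast, smooth muscle and erythroid sums overlapped too. Among single markers, 1 of 5 endothelial (*Pecam1*, 149.6 to 173.3 against 173.4 to 189.0 CPM) lay lower without overlap. Of the 5 fibroblast markers, 1 (*Col1a2*, 114.6 to 153.3 against 67.5 to 90.3 CPM) lay higher without overlap. None of the smooth muscle or erythroid markers separated. Of the 3 atrial markers, *Nppa* lay higher without overlap, at 156.8 to 1522 against 72.7 to 104.4 CPM. The other atrial markers, *Myl7* and *Sln*, overlapped and reached at most 1.13 and 0.0588 CPM. The adipocyte and hepatocyte sums were at most 1.19 and 0.53 CPM, with *Adipoq*, *Plin1* and *Alb* at 0 in some libraries. Their part in the levels of the ketone genes was not tested.

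Given per 10000 CPM of the heart muscle cell markers, a scale added after the data were seen, *Bdh1* was 4.71 to 5.82 at low *Vdac2* and 9.44 to 12.0 at high *Vdac2*, still without overlap. On this scale *Oxct1* overlapped, at 184 to 208 and 198 to 242, and so did *Acat1*. *Slc16a1* was 65.9 to 96.0 against 53.9 to 64.4, a gap of 1.02 times between the nearest libraries. The marker sum itself lay lower at low *Vdac2* (59135 to 67354 against 70937 to 81907 CPM), so dividing by it raises any gene there. The share of all tested genes that separate on this scale was not computed, and nothing is read from the gap of *Slc16a1*. Library 3, low in these markers, gave the highest value of each of the 5 members on this scale.

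A list of 32 other genes of ketone body cleavage, transport and sensing, succinyl-CoA supply, regulation and valine breakdown was also counted. Of these, 23 passed the low-count filter. Between the deposited labels 0 of the 23 passed an adjusted p of 0.05 in edgeR and 0 in DESeq2, where 0.0551% and 0.429% of all tested genes did. Only 1 of the 23 had an unadjusted p under 0.05 in edgeR, against 6.11% of all tested genes. It was *Slc16a7*, a second monocarboxylate transporter (log2 fold change 0.53, unadjusted p = 0.0457, adjusted p = 0.679). The median over the 23 was 0.24, with 16 of 23 (69.6%) higher under the KO label, beside -0.02 and 47.3% over all tested genes. Library 3 bore on this median, which without it was 0.05, with 19 of 23 higher (82.6%), beside 0.003 and 50.6% over all genes tested then. By *Vdac2* level, as a description, 9 of the 23 lay wholly lower at low *Vdac2*, 1 lay wholly higher and 13 overlapped. The shares over all tested genes were 4.93% and 7.16%. The 9 were *Hadh*, *Acaa2*, *Suclg1*, *Suclg2*, *Ogdh*, *Dlst*, *Ppara*, *Ppargc1a* and *Hibadh*, none of them particular to ketone bodies. *Aacs*, *Acat2*, *Slc16a6*, *Slc16a7* and *Bsg* overlapped, and *Slc16a3* lay higher. The count therefore does not describe ketone body use as such.

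Of the 5 tested genes listed for cleavage and activation, 2 lay lower at low *Vdac2* without overlap and 3 overlapped. *Hadh*, a hydroxyacyl-CoA dehydrogenase of fatty acid oxidation, was at 340.7 to 395 CPM with low *Vdac2* and 477 to 568 CPM with high *Vdac2*. *Acaa2*, the thiolase of the same spiral, was at 661 to 796 CPM and 902 to 977 CPM. *Acaa1a*, a peroxisomal thiolase, overlapped at 22.8 to 29.9 and 27.1 to 30.9 CPM, as did the cytosolic thiolase *Acat2* and *Aacs*, which activates acetoacetate in the cytosol. All 5 genes of succinyl-CoA supply were measured, and *Suclg1*, *Suclg2*, *Ogdh* and *Dlst* lay lower at low *Vdac2* without overlap, while *Sucla2* overlapped. The share that lay wholly lower was 4.93% over all tested genes, and nothing is read from these counts because the libraries were chosen for this contrast. The gap between the nearest libraries was 1.07 times for *Suclg1*, 1.03 for *Suclg2*, 1.02 for *Dlst* and 1.14 for *Ogdh*, beside 1.05 for the summed heart muscle cell markers. *Ogdh*, a subunit of the oxoglutarate dehydrogenase that makes succinyl-CoA, was at 945 to 1203 CPM and 1377 to 1544 CPM. *Hibadh*, a dehydrogenase of valine breakdown, lay lower with a gap of 1.07 times, and *Hibch* of the same route overlapped.

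Among the regulators, *Ppara*, a nuclear receptor that drives genes of fatty acid oxidation and ketone production, was at 41.0 to 47.4 CPM with low *Vdac2* and 52.5 to 65.5 CPM with high *Vdac2*. *Ppargc1a*, its coactivator, was at 125 to 136 CPM and 137 to 172 CPM, a gap of 1.01 times between the nearest libraries. *Ppard*, *Esrra*, *Sirt3* and *Hif1a* overlapped. Among the other transporters *Slc16a3*, which encodes the lactate exporter MCT4, was low, at 1.80 to 2.28 CPM against 1.24 to 1.48 CPM, and reached 33.6 CPM in library 3. *Bsg*, the chaperone of MCT1, overlapped at 679.8 to 896 and 741 to 842 CPM. The testis transferases *Oxct2a* and *Oxct2b* and the receptor *Ffar3* had 0 counts in all 9 libraries, where 3 counts correspond to 0.0692 to 0.114 CPM, and the hydroxybutyrate receptor *Hcar2* reached at most 0.431 CPM.

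**Figure D4:**
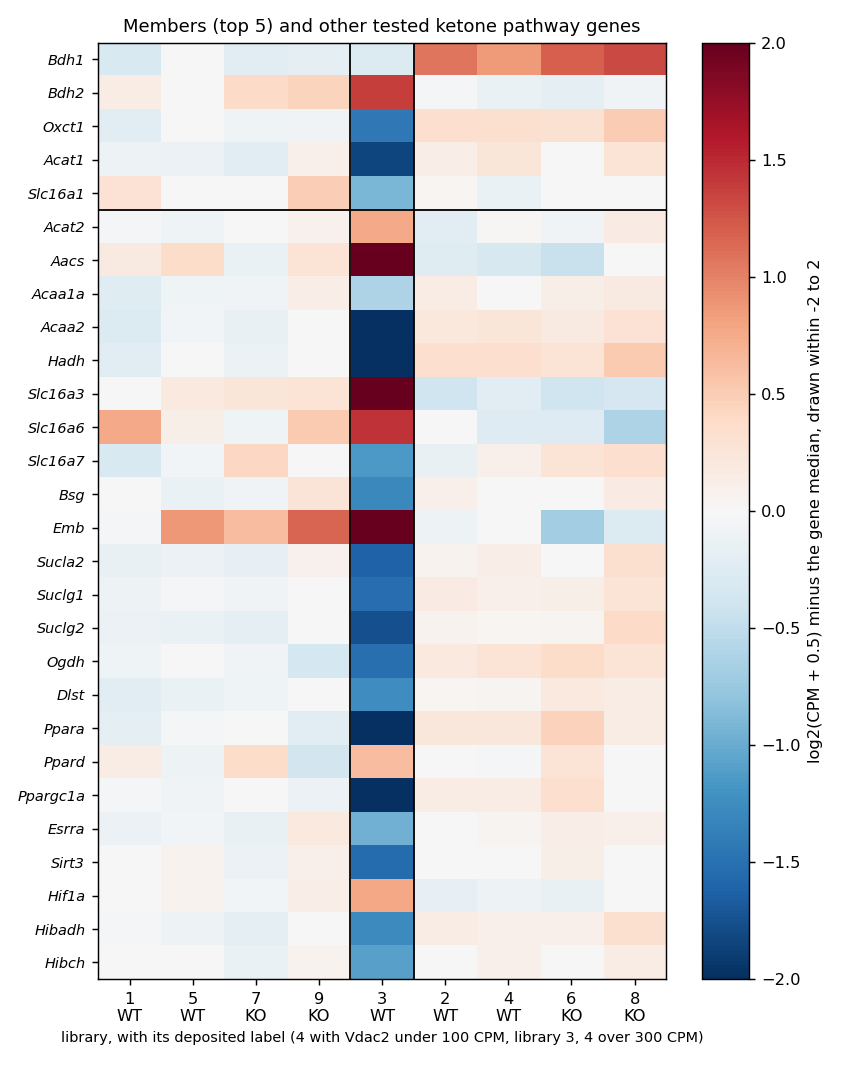
Level of the 5 members (above the horizontal line) and 23 tested pathway genes (rows) in each library (columns, ordered by Vdac2 level, with the deposited label), as log2(CPM + 0.5) minus the median of the gene, with colours held within -2 to 2. Bdh1 shows the widest step between libraries 1, 5, 7 and 9 and libraries 2, 4, 6 and 8. In the former, 9 of the 23 pathway genes also lie lower without overlap, none particular to ketone bodies, beside 4.93% of all tested genes. Library 3, which lies with the former for Bdh1, stands outside both ranges in the other rows.

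**Figure D5:**
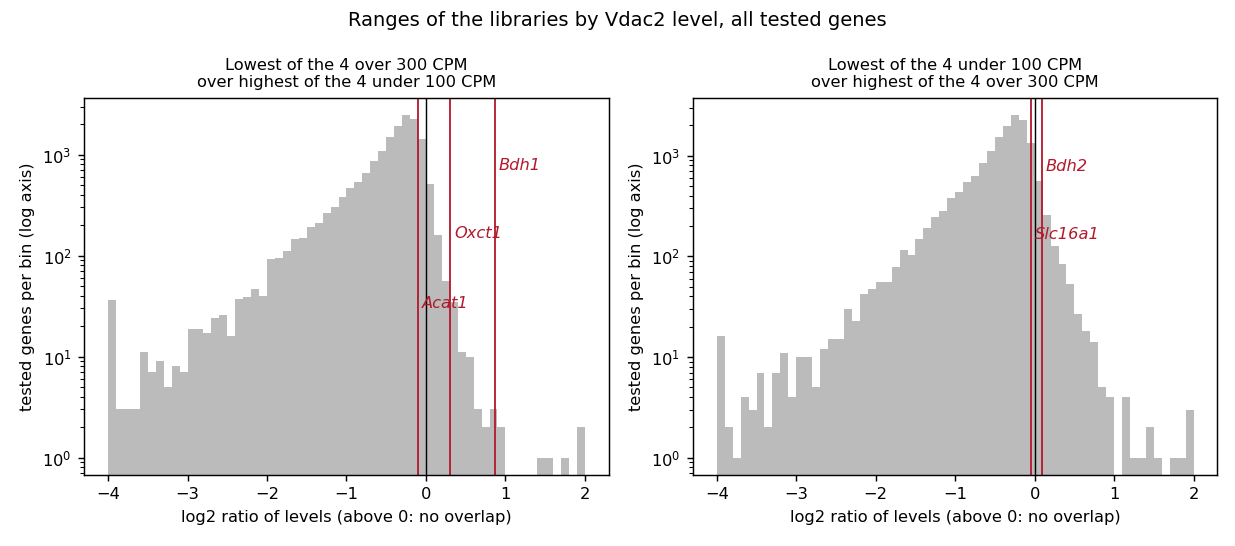
Distribution over all 16322 tested genes of the log2 ratio between the nearest libraries of the 2 Vdac2 levels (x axis, drawn within -4 to 2, above 0 where the ranges do not overlap; y axis, genes per bin, log scale), for lower levels at low Vdac2 on the left and higher levels on the right. The ratio of Bdh1, 1.82, lies far to the right of 0, those of Oxct1, 1.23, and Bdh2, 1.06, lie nearer, and Acat1 and Slc16a1 lie just below 0.

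The genes with the most similar profile over the 9 libraries, by the root mean square difference of centred log2 levels among 13736 genes of at least 1 CPM on average, were *Ano10* (0.246), *Amph* (0.285) and *Dct* (0.297) for *Bdh1*. For *Oxct1* they were *Pnck* (0.0624), *2310015D24Rik* and *Gm44421*, and for *Acat1* they were *Coq9* (0.0559), *Mgst3* and *Idh3b*. *Slc16a1* was nearest to *Gnb5* (0.0843), *Vwa7* and *Cidea*, and *Bdh2* to *Pdlim2* (0.0813), *Gm2a* and *Eif5a2*. The profile of *Bdh1* itself had a root mean square of 0.663, so even its nearest gene, *Ano10*, a member of the anoctamin family, left a sizeable difference. The levels of *Ano10* were 28.1, 71.9, 24.7, 85.4 and 42.3 CPM in the libraries labelled WT, in order, and 61.5, 34.7, 76.0 and 30.3 CPM for those labelled KO. Without library 3 the nearest genes were *Dct* for *Bdh1* (0.241), *Hadh* for *Oxct1* (0.0277) and *Pdk1* for *Acat1* (0.0472). Of the 15 genes named as the nearest 3 of each member, 4 stayed when library 3 was left out.

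Reads from 2 members can be confused with a partner on the other strand if the counting ignored strand, and the strand setting is not given in the sources used here. Of the 50-base stretches of *Bdh1* exons, 11.1% are shared with the antisense gene *Gm15743*, which had 12 to 46 counts per library against 907 to 3207 for *Bdh1*. Of those of *Oxct1*, 11.2% are shared with *BC037032*, which had 62 to 356 counts against 17982 to 63838 for *Oxct1*. No stretch of *Bdh2*, *Acat1* or *Slc16a1* exons was shared with another annotated transcript.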

How the data were processed

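Total RNA of the left ventricle was extracted with the miRNeasy kit, depleted of ribosomal RNA and sequenced as stranded libraries with single-end reads of 50 bases. Per the labels, the submitters' processing notes name GRCm38, STAR 2.7.2c, featureCounts 1.6.3 and DESeq2, and the authors deposited 1 table of raw counts of reads per Ensembl gene, without normalization, for 52636 genes and 9 libraries. For the annotation release, the strand setting and multi-mapping reads, the choice is not given in the sources used here. 1 WT sample was removed by the authors for poor RNA quality, without its name, so all 9 libraries were used.

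The counts were normalized by TMM and tested with edgeR 4.0.16 (R 4.3.3), with filterByExpr, robust quasi-likelihood tests and Benjamini-Hochberg adjustment over 16322 genes, labelled KO against labelled WT, without covariates. The procedure was tested on simulated data. Symbols were matched for 52403 genes, and gene models are from GENCODE M21. Counting intervals are exact (Clopper-Pearson, 95%) and cover counting error only. Depth was 27345052 to 44673988 counts, so that 3 counts correspond to 0.0692 to 0.114 CPM. No pair of libraries agreed within sampling noise (lowest chi-square per degree of freedom 7.35). The genes named are the members, the listed ketone pathway genes, and for each member the 3 genes with the most similar profile, with *Vdac2* and the sex-chromosome genes as checks of the labels, listed cell type markers and antisense partners of members beside them. Some genes of the pathway are not reported here. The members and lists were chosen with earlier results of these data known. Libraries are also shown by their *Vdac2* level, under 100 and over 300 CPM with library 3 apart, without averages or tests.

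The same results were recomputed with DESeq2 1.42.0, with RLE or upper-quartile scaling, other low-count filters, limma 3.58.1 with library quality weights, mitochondrially encoded genes left out, the study's filters (absolute log2 fold change over 0.585 and mean normalized count over 30), each library left out in turn and, added after the data were seen, levels per heart muscle cell markers.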

Additional observations from a re-analysis of the deposited data

Results flagged for a closer look

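In 2 of the 10 groups of 1 member in 1 label, a single library lay far from the others by Dixon's ratio of its gap to the range, which chance gives in about 1 in 20 groups. *Bdh2* in library 3, labelled WT, was at 1.91 CPM against 0.342 to 0.525 CPM in the other 4, a ratio of 0.884 above the critical value for 5 samples, with 71 counts behind the value. *Slc16a1* in library 9, labelled KO, was at 630.9 CPM against 441.4 to 449.3 CPM in the other 3, a ratio of 0.958 above the critical value for 4 samples. Library 9 also had the highest level of *Nppa* outside library 3, at 1522 CPM. Neither pattern was tested further.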

How the results depend on the processing

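The count of genes called between the deposited labels was 9, and it was 70 with DESeq2, 77 with library quality weights and 0 with at least 10 counts in every library (875 at an unadjusted p under 0.05). It ran from 5 to 62 when each library was left out, with 62 without library 3 and 5 without libraries 1, 2 or 4, and was 8 to 11 with the other settings. No member was called under any of these settings (*Bdh2* did not pass the filter of 10 counts), and the lowest adjusted p was 0.623. The log2 fold change of *Bdh2*, -0.43, turned to 0.10 with quality weights and ran from -0.63 to 0.36 when each library was left out. That of *Acat1*, 0.23, ran from -0.0015 to 0.36, and both turned sign without library 3. Those of *Bdh1* (0.04 to 0.56), *Oxct1* (0.05 to 0.39) and *Slc16a1* (0.08 to 0.34) kept their sign when each library was left out. With quality weights *Oxct1* was at 0.13, *Acat1* at 0.025 and *Slc16a1* at 0.028.

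The ratio between the nearest libraries of the 2 *Vdac2* levels, above 1 where the ranges did not overlap, was 2.61 for *Bdh1* and 1.86 for *Bdh2* within the label KO. For *Acat1* it moved from 0.935 to 1.18 within the label WT and to 0.75 per heart muscle cell markers. Per these markers it was 0.949 for *Oxct1* and 1.02 for *Slc16a1*, and *Slc16a1* gave 1.01 without a scaling factor and 0.518 with library 3 counted among the libraries with low *Vdac2*. Causes were not tested. No paired analysis was possible because the labels share no replicate numbers. Among the members, depth limits *Bdh2*, with 9 to 71 counts.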
